A study of Mus musculus with 51 samples.

Results

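The 10 genes described here encode the transcription factors of the FOS family (Fos, Fosb, Fosl1 and Fosl2), of the JUN family (Jun, Junb and Jund) and of the EGR family (Egr1, Egr2 and Egr3). Their rows were found by gene symbol, and each had 1 row among the 40077 genes quantified by RNA-seq in 51 mouse libraries. The study addressed what depletion, excess or inhibition of Uba1, the gene of the enzyme that activates ubiquitin in the first step of its transfer to proteins, does to cancer cells and to tumors. Myc-CaP is a mouse prostate cancer cell line and B16-BL6 a mouse melanoma cell line. Of the libraries, 35 came from subcutaneous tumors in syngeneic mice 6 to 8 weeks old, male FVB mice for Myc-CaP and female C57BL/6 mice for B16-BL6. B16-BL6 tumors carried a non-targeting guide (sgNC, 3 tumors) or a guide against Uba1 (sgUba1, 4 tumors). The Myc-CaP tumors formed 3 experiments: 3 sgNC against 7 sgUba1 tumors, 3 tumors with an empty vector (EV) against 4 with lentiviral Uba1 overexpression (OE), and 6 tumors of vehicle-treated mice against 5 of mice given 25 mg/kg of TAK-243, an inhibitor of the UBA1 enzyme, intravenously 2 times per week. The other 16 libraries came from cultured Myc-CaP cells in 8 groups of 2. In the first culture experiment the cells were untreated, or received 50 nM TAK-243 for 18 h, 1 ng/mL of the cytokine IFN-γ for 18 h, or both; in the second, sgNC and sgUba1 cells were grown with or without IFN-γ. No group of cells or tumors lacked Uba1 altogether, since the guides, selected with puromycin and grown from single cells, gave a partial depletion. Tumors were raised on both flanks and the labels number tumors, not mice, so some tumors may share a mouse, and p-values measure the spread between these samples only.

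AP-1 is a dimer that forms through leucine zippers, either between a FOS and a JUN protein or between JUN proteins, and it binds the 7-base element TGANTCA. The EGR proteins bind GC-rich DNA through zinc fingers. Transcription of several of these genes starts within minutes of a growth factor, cytokine or stress signal, without new protein synthesis, through serum response factor and its partners at CArG boxes and through CREB and AP-1 family proteins at cyclic AMP response elements. The messages are short-lived as a rule, and the proteins are marked with ubiquitin and degraded. Jund and, in many epithelial cells, Fosl1 and Fosl2 are exceptions in that they are also expressed steadily.

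Total counts ranged from 8652097 to 35693203 over the tumor libraries and from 12860987 to 38032395 over the cell libraries. The melanocyte marker genes summed to between 10268 and 12233 TPM (transcript level scaled for length and library size) in the B16-BL6 tumors and to at most 16.3 TPM in the Myc-CaP tumors. By edgeR's quasi-likelihood test, Uba1 itself fell by 0.92 on the log2 scale in the B16-BL6 tumors labelled sgUba1 (adjusted p = 2.94e-04), fell by 0.87 in the sgUba1 cells (adjusted p = 3.71e-07) and rose by 1.27 in the OE tumors (adjusted p = 0.00503). Among Myc-CaP tumors, those labelled sgUba1 had a Uba1 log2 difference of -0.13 (adjusted p = 0.787), with 3 of the 7 tumors below all sgNC tumors and 4 above them, so these tumors are named by their label throughout.

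The promoters are shown because the members moved together in some comparisons and apart in others, and because the letters of the elements named above can be looked for in them. RefSeq promoter windows on GRCm38 were matched for 7 of the 10 members; Fosl1, Egr1 and Egr3 are named only. Each sequence below is the 250 bases before the RefSeq transcription start, written 5′ to 3′ on the strand of the gene. Capitals mark matches, on either strand, to the cyclic AMP response element core TGACG, to the related TGACNTCA, to the EGR site GCGNGGGCG, to the TATA box TATAAA or to the CArG box.
Fos chr12:85473640-85473889, + strand: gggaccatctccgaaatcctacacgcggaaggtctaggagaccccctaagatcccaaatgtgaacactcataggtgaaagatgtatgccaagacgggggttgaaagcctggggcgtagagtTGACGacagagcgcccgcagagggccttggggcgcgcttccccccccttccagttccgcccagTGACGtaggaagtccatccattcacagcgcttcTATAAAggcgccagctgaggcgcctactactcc
Fosb chr7:19310046-19310295, - strand: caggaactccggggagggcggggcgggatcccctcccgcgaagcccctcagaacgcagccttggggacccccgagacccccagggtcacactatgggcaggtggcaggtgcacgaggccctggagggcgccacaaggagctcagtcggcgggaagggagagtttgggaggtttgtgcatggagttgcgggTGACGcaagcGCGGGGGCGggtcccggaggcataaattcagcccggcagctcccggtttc
Jun chr4:95052223-95052472, - strand: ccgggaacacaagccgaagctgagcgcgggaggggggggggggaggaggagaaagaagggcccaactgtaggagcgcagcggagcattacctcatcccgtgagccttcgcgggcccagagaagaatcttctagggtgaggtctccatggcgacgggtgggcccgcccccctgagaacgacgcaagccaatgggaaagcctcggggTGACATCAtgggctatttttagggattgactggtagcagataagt
Junb chr8:84978749-84978998, - strand: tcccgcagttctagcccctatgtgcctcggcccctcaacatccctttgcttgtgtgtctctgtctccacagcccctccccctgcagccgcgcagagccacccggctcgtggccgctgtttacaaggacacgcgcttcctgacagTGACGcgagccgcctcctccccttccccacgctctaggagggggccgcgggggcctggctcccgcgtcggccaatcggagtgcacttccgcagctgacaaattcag
Egr2 chr10:67537619-67537868, + strand: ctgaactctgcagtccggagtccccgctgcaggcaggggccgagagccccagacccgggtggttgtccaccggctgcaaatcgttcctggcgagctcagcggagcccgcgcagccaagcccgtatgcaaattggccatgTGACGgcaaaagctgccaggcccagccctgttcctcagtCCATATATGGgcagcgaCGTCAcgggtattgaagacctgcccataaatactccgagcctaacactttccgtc

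Counted back from the start, the Fos window held TGACG at -129 to -125 and at -66 to -62, and TATAAA at -33 to -28. In Fosb, TGACG lay at -60 to -56 and was followed by an EGR site at -50 to -42. Junb held TGACG at -106 to -102, and Jun held TGACATCA at -45 to -38. Fosl1, Egr1 and Egr3 had no window, and bases further upstream than 250 were not searched. Among the 7 members searched, only Egr2 held a CArG box. Of its 5 RefSeq windows 4 hold one, and the third by position is shown, where CCATATATGG at -72 to -63 stood between TGACG at -111 to -107 and its reverse complement CGTCA at -55 to -51. The 7-base AP-1 element TGANTCA was in none of the 11 windows of the 7 members. Over all 32851 windows of this length, 17.8% held TGACG, 7.49% TGACNTCA, 4.7% the EGR site, 12.4% TATAAA, 1.47% a CArG box and 6.75% TGANTCA. Where N is G, TGACNTCA holds TGACG on both strands. A match is a match of letters, not a measured binding site.

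By the GENCODE M21 annotation of GRCm38 all 10 members are protein-coding. Fos spans 85473890 to 85477273 on chromosome 12, Fosb 19302696 to 19310051 on chromosome 7, Fosl1 5447547 to 5455946 on chromosome 19 and Fosl2 32135801 to 32157842 on chromosome 5. Jun lies at 95049034 to 95052222 on chromosome 4, and Junb (84974484 to 84978718) and Jund (70698949 to 70700616) share chromosome 8. Egr1 lies on chromosome 18, Egr2 at 67535475 to 67542188 on chromosome 10 and Egr3 at 70077203 to 70082614 on chromosome 14. Fosl1 shares 2767 bases with Ccdc85b, a gene on the opposite strand, and Junb shares 351 bases with Prdx2, while Jun and Jund overlap the antisense genes Junos and Gm11175. Whether the counting used the strand is not stated, so reads of these overlaps cannot be assigned with certainty. Ccdc85b was measured at 3.11 to 25.2 TPM.

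Jund, a JUN family gene that is also expressed in resting cells, had the highest level of the 10 members in the median of all 8 tumor groups and of the 6 cell groups without TAK-243. In untreated Myc-CaP cells the order of the median TPM was Jund, Fosl1, Junb, Fosl2, Jun, Fos, Egr1, Fosb, Egr2 and Egr3. Cells given TAK-243 had another order, Junb, Fosl1, Jund, Egr1, Jun, Fosl2, Fos, Fosb, Egr2 and Egr3. The lowest member was Egr3 in each Myc-CaP tumor group and Fosl1 in both B16-BL6 groups. Across all libraries no member was at 0 counts. Sorted by mean level, neighbouring groups overlapped in 15 of 15 pairs for Egr3, 14 for Jun, 12 for Fos, 12 for Fosb, 11 for Jund, 11 for Egr2, 9 for Fosl1, 9 for Fosl2, 9 for Egr1 and 8 for Junb. Hence most steps in these orders were within the spread of the samples. Fos, Fosb, Fosl2, Egr2 and Egr3 had their highest mean in the Myc-CaP tumors labelled sgUba1, and Fosl1, Junb and Egr1 had theirs in cultured cells given TAK-243 with IFN-γ. Jun was highest in the TAK-243 tumors and Jund in the OE tumors.

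In cultured Myc-CaP cells TAK-243 raised 9 of the 10 members and lowered 1, Jund. Egr1 moved furthest, by 137-fold, followed by Fos, Fosb and Egr2. Fosl1, Fosl2, Jun and Junb, which were already abundant in untreated cells, had increases between 1.98-fold for Fosl2 and 3.64-fold for Junb. A call here is an adjusted p under 0.05 by edgeR's quasi-likelihood test on counts, and the background is high: 66.3% of the 14551 genes tested were called, 32.3% as higher and 34% as lower. The count of 10 members called is therefore to be read with the sizes of the changes: the median log2 fold change was 1.87 over the members and 0.03 over all genes.

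**Figure D1:**
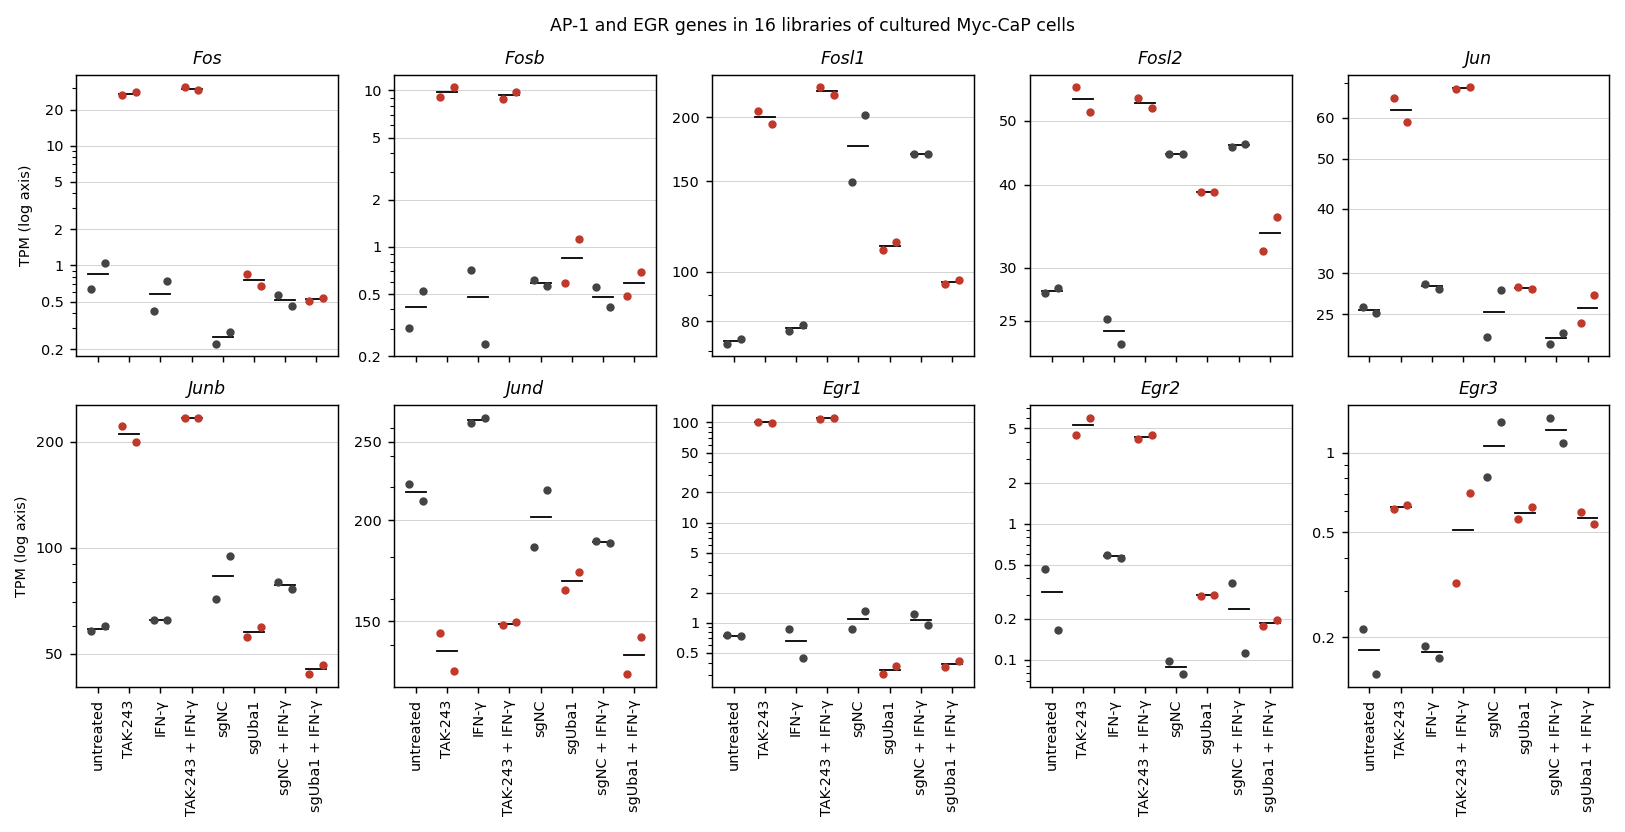
Level of each member in TPM (log axis) in the 16 libraries of cultured Myc-CaP cells, in the order untreated, TAK-243, IFN-γ, TAK-243 with IFN-γ, sgNC, sgUba1, sgNC with IFN-γ and sgUba1 with IFN-γ; each point is 1 library, gray for groups with neither TAK-243 nor sgUba1 and red for the others, and the bar is the median of the 2. Egr1 stood at 99.4 and 100.5 TPM in the TAK-243 libraries against 0.738 and 0.748 TPM in the untreated libraries, while Jund is the panel in which the TAK-243 libraries lie lower.

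Fos, which pairs with JUN proteins and is the textbook immediate early gene, stood at 0.632 and 1.05 TPM (13 and 22 counts) in the untreated libraries and at 26.2 and 27.9 TPM (563 and 467 counts) with TAK-243. Both treated libraries were far above both untreated ones. The log2 fold change was 5.01 (SE 0.166, adjusted p = 2.44e-21, edgeR), a 32.3-fold increase. Fosb, its closest relative, was at 0.303 and 0.524 TPM untreated and at 9.07 and 10.5 TPM treated, again without overlap, with a log2 fold change of 4.66 (SE 0.214, adjusted p = 6.36e-18). Fosl1, which encodes FRA-1, a FOS protein without a strong activation domain, was already among the abundant members. Its levels were 72.3 and 73.8 TPM untreated and 205 and 194 TPM treated. That rise was 1.47 on the log2 scale (SE 0.0383, adjusted p = 6.82e-24). Fosl2, which encodes FRA-2, was at 27.5 and 28.0 TPM untreated and 56.1 and 51.5 TPM treated, the smallest of the increases at 0.98 (SE 0.0400, adjusted p = 3.70e-19). Fos and Fosb, which were low in untreated cells, thus rose by far more than the abundant Fosl1 and Fosl2. The opposite-strand neighbour of Fosl1, Ccdc85b, fell by 1.55 on the log2 scale.

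Jun encodes c-JUN, the main activating partner of FOS. It was measured at 25.8 and 25.1 TPM untreated and at 65.6 and 58.9 TPM with TAK-243. The increase was 1.32 on the log2 scale (SE 0.0497, adjusted p = 5.60e-20), with no overlap of the groups. Junb, which binds the same element and can oppose Jun, went from 58.0 and 59.8 TPM to 221 and 200 TPM, so that it became the highest of the 10 members. This was a log2 fold change of 1.87 (SE 0.0423, adjusted p = 2.52e-25). Jund was the one member that fell. It was at 222 and 211 TPM untreated and at 145 and 130 TPM treated, both treated libraries being lower, and it fell by 0.62 on the log2 scale (SE 0.0387, adjusted p = 9.04e-15), or 1.54-fold.

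Egr1, a zinc finger factor induced by growth factors and stress, was close to silent in untreated cells, at 0.748 and 0.738 TPM (23 and 27 counts). With TAK-243 it reached 100.5 and 99.4 TPM (3511 and 2751 counts). The log2 fold change of 7.10 (SE 0.0864, adjusted p = 1.37e-31) ranked 22 by size among all 14551 genes tested. Egr2, known from myelination and from T cell anergy, was at 0.462 and 0.166 TPM untreated, from 7 and 4 counts, and at 4.51 and 5.996 TPM treated, from 135 and 106 counts. Its log2 fold change was 4.56 (SE 0.296, adjusted p = 2.49e-14), and the small untreated counts make its size less certain than that of Egr1. Egr3, related to Egr2 in function, rose least of the 3 EGR genes in absolute level, from 0.214 and 0.146 TPM (8 and 6 counts) to 0.613 and 0.634 TPM (26 and 21 counts). For Egr3 the log2 fold change was 1.87 (SE 0.502, adjusted p = 0.00165).

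Other genes of the pathway come from lists of known members, chosen with earlier results of these data known. From each list, the genes named are up to 4 called genes with the largest log2 fold changes, so they show the extremes. Over all genes 66.3% were called, 32.3% as higher and 34% as lower. Of 28 tested other immediate early genes, 23 rose and 2 fell with TAK-243, with a median log2 fold change of 1.12 against 0.03 over all genes. Among them Ier3, an early response gene tied to cell survival, rose by 4.09 on the log2 scale, Ccn1, a secreted matrix protein, by 4.05, Ptgs2, the inducible cyclooxygenase, by 2.81, and Dusp1, a phosphatase that switches off MAP kinases, by 2.80. Known AP-1 target genes behaved likewise, 10 of 12 rising and 1 falling, with a median of 1.93. Mmp10, a matrix metalloproteinase, rose by 6.71, and Plau, the urokinase protease, by 4.80, followed by Hbegf, an EGF receptor ligand, at 2.71, and Plaur, the urokinase receptor, at 2.29. In the lists of bZIP factors, kinases, feedback genes and ligases, the share called was near that of all genes. Their counts are therefore not a result about these lists. Of 9 tested bZIP factors that can pair with AP-1 proteins, 4 rose and 3 fell: Atf3 by 3.31, Maff by 2.37 and Mafk by 1.62 upward, while Maf fell by 1.24. Nab2, an EGR-induced corepressor of EGR proteins, rose by 1.78. The upstream kinases and SRF partners were divided, with 10 of 21 higher, 6 lower and a median of 0.01. Mapk9, which encodes the kinase JNK2, fell by 1.49, and Rps6ka5, a nuclear kinase of the CREB pathway, rose by 1.01. Of 8 feedback regulators of MAP kinases 4 rose and 1 fell, led by Dusp5, a nuclear ERK phosphatase, at 3.64. Among the 4 ubiquitin ligase genes for JUN proteins, Fbxw7 rose by 0.68 and Itch by 0.52, while Det1 fell by 1.35.

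IFN-γ alone raised the 3 JUN genes and Fosl1 in untreated cells, by little. The values below are counts scaled to library size within the experiment (CPM), the scale of the test. Jund was at 210 to 223 CPM without and 309 to 315 CPM with IFN-γ, and its log2 fold change was 0.53 (adjusted p = 1.71e-12, edgeR). Jun stood at 51.6 to 53.4 CPM without and 67.9 to 69.2 CPM with the cytokine, up by 0.38 on the log2 scale (adjusted p = 2.40e-06). Fosl1 rose by 0.32 (adjusted p = 9.17e-07) and Junb by 0.31 (adjusted p = 1.23e-05), and the groups did not overlap for any of the 4. The size depends on the scaling: in TPM, where the groups did not overlap either, the medians were 73.1 and 77.6 for Fosl1, 58.9 and 62.2 for Junb, 25.5 and 28.3 for Jun and 217 and 266 for Jund, smaller steps than in CPM. Fosl2, which was not called, had TPM medians of 27.7 without and 24.1 with IFN-γ. The other 6 members had log2 fold changes between -0.29 and 0.60 and adjusted p of at least 0.275. These 4 calls of 10 stand against 29% of all genes. Of the 28 other immediate early genes 17 rose and 1 fell. In sgNC cells, which belong to the other culture experiment, IFN-γ gave no call among the 10 members by edgeR and none by DESeq2; 3 had an unadjusted p under 0.05, the log2 fold changes ran from -0.09 to 1.1, and 3.88% of all genes were called.

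In the presence of IFN-γ the response to TAK-243 had the same shape. Of the 10 members 8 rose and 1 fell, against 68.2% of all genes called in either direction. Egr1 went from 0.86 and 0.444 TPM with IFN-γ alone to 108 and 111 TPM with both agents, a log2 fold change of 7.14, or 141-fold. Fos went from 0.414 and 0.746 TPM to 30.6 and 29.0 TPM, a log2 fold change of 5.49. For the other called members these changes were 4.42 for Egr2, 4.25 for Fosb, 1.76 for Junb, 1.35 for Fosl1, 1.12 for Jun, 0.98 for Fosl2 and -0.99 for Jund. Egr3 was not called: its values were 0.186 and 0.168 TPM without and 0.321 and 0.702 TPM with TAK-243, where the lower library had 10 counts, and the log2 fold change was 1.13 (SE 0.512, adjusted p = 0.0517).

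Whether IFN-γ altered the effect of TAK-243 was tested as an interaction, which called 2.38% of all genes and 1 of the 10 members, Jund. The fall of Jund with TAK-243 was larger when IFN-γ was present (interaction on the log2 scale -0.37, SE 0.0536, adjusted p = 8.34e-05). That size belongs to the CPM scale of the test. In TPM the rise of Jund with IFN-γ alone was smaller, and an interaction was not computed. In levels, Jund stood at 264 and 268 TPM with IFN-γ alone, above the 222 and 211 TPM of untreated cells, while the 148 and 150 TPM with both agents were close to the 145 and 130 TPM with TAK-243 alone. Interactions of the other 9 members lay between -0.74 and 0.48, with adjusted p of at least 0.141.

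The comparison of sgUba1 with sgNC cells gave another picture in culture. These cells were sublines grown from single cells, so the effect of the guide and differences between sublines cannot be told apart. The same holds for the tumors labelled sgNC and sgUba1. The study used 2 guides against Uba1, which the labels do not tell apart. Of the 10 members 1 rose, Fos, and 5 fell, Egr1, Fosl1, Junb, Jund and Fosl2, where 29.7% of all 15530 genes tested were called, 16.2% as higher and 13.6% as lower. Egr1, the member that TAK-243 raised most, was the member that fell most in sgUba1 cells. It stood at 0.855 and 1.31 TPM (50 and 83 counts) in sgNC cells and at 0.308 and 0.373 TPM (23 and 25 counts) in sgUba1 cells, without overlap. The log2 fold change was -1.75 (SE 0.281, adjusted p = 7.67e-04, edgeR), a 3.37-fold decrease. Fos was at 0.223 and 0.281 TPM (8 and 11 counts) in sgNC cells and at 0.854 and 0.669 TPM (39 and 30 counts) in sgUba1 cells. Its log2 fold change of 1.56 (SE 0.356, adjusted p = 0.00662) rests on these few counts, and without sgUba1 library 1 the adjusted p was 0.0605, in a fit where the remaining sgUba1 library is assumed to vary like the other groups.

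**Figure D2:**
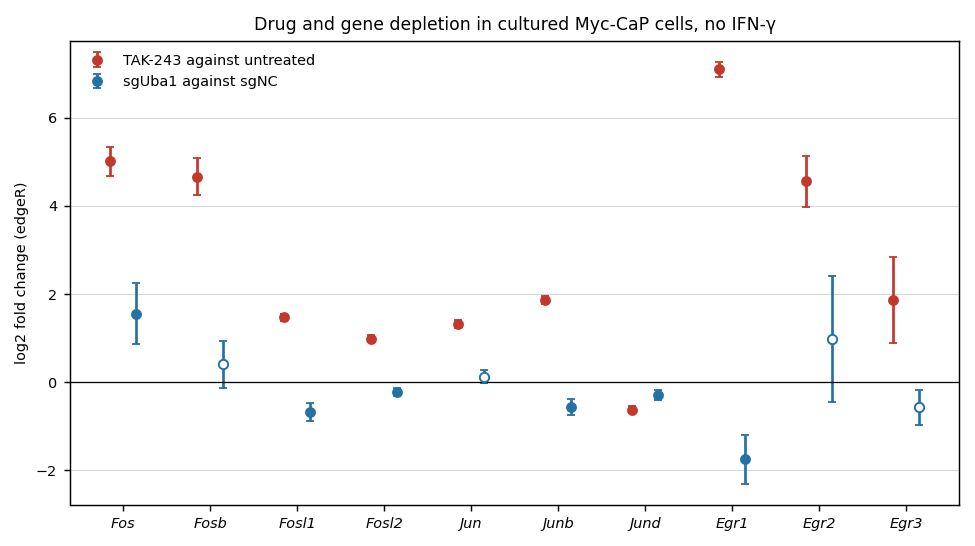
Log2 fold change (vertical axis) of each member with TAK-243 against untreated cells (red) and with sgUba1 against sgNC cells (blue), both without IFN-γ; bars are 95% intervals from the standard error of edgeR's fit and open circles are members not called. Egr1 lies at 7.10 with TAK-243 and at -1.75 with sgUba1, and Jund lies below 0 in both.

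Fosl1 was at 150 and 202 TPM in sgNC cells and at 110 and 114 TPM in sgUba1 cells. Both depleted libraries were lower, and Fosl1 fell by 0.67 on the log2 scale (SE 0.0998, adjusted p = 4.84e-04). Junb stood at 71.3 and 95.0 TPM in sgNC and 55.6 and 59.4 TPM in sgUba1 cells, a log2 fold change of -0.56 (adjusted p = 8.92e-04). Jund, at 185 and 218 TPM in sgNC and 164 and 172 TPM in sgUba1 cells, fell by 0.29 (adjusted p = 0.00446). Fosl2 fell by 0.22 (adjusted p = 0.00428) from 44.6 and 44.6 TPM to 39.0 and 39.1 TPM; without sgUba1 library 2 its adjusted p was 0.0523. The others were not called. Log2 fold changes were 0.13 for Jun (adjusted p = 0.243), 0.40 for Fosb (adjusted p = 0.318) and 0.97 for Egr2 (adjusted p = 0.364). Egr3 was at 0.809 and 1.30 TPM in sgNC and at 0.559 and 0.621 TPM in sgUba1 cells, a log2 fold change of -0.57 (adjusted p = 0.0535). Of the 2 sgNC libraries, library 2 was the higher for Fos, Fosl1, Jun, Junb, Jund, Egr1 and Egr3.

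With IFN-γ in both arms, 6 members were lower in sgUba1 than in sgNC cells and none was called higher in the main fit, where 39.4% of all genes were called. Fosl1 stood at 170 and 169 TPM in sgNC and 94.6 and 96.3 TPM in sgUba1 cells (log2 fold change -0.84, adjusted p = 6.23e-05 by edgeR). Junb was at 80.0 and 76.3 TPM against 43.8 and 46.4 TPM (-0.79, adjusted p = 5.31e-05). Egr1 was at 1.21 and 0.937 TPM against 0.359 and 0.416 TPM (-1.32, adjusted p = 0.00188). In all 3 genes both sgUba1 libraries lay below both sgNC libraries, which with 2 libraries per group adds no support to the calls. Egr3 (-1.04, adjusted p = 9.42e-04), Jund (-0.46, adjusted p = 1.39e-04) and Fosl2 (-0.43, adjusted p = 3.45e-05) were also lower. For Fos it was 0.03 (adjusted p = 0.960), its sgNC libraries standing at 0.571 and 0.46 TPM and its sgUba1 libraries at 0.502 and 0.54 TPM. Jun, at 0.20 (adjusted p = 0.0509), sat at the threshold and was called higher under other settings, among them DESeq2 (adjusted p = 0.0470). The interaction of sgUba1 with IFN-γ called none of the 10 members by edgeR and none by DESeq2, with 2 at an unadjusted p under 0.05, against 4.64% of all genes; that of Fos was -1.53 (SE 0.480, adjusted p = 0.0942).

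Among the pathway lists, the other immediate early genes were mixed in sgUba1 cells, 4 of 28 rising and 10 falling, where 16.2% of all genes rose and 13.6% fell, with a median log2 fold change of -0.09. Ier3 fell by 0.98, Arc, a neuronal early gene, by 0.86 and Plk3, a stress kinase, by 0.77, while Ccn1 rose by 0.90. Of 11 AP-1 target genes 1 rose and 5 fell (median -0.28), among them Vegfa, the angiogenic growth factor, by 1.18, and Plau by 0.68. Of 8 bZIP partners 1 rose, Jdp2, a repressor of AP-1, by 0.38, and 4 fell, led by Maff at -1.03. The SRF partners and kinases leaned the other way, 10 of 21 rising and 1 falling, with Elk3, an SRF partner, at 1.56 and Rps6ka5 at 0.82. Of 7 MAP kinase feedback genes 2 fell, Dusp6, an ERK phosphatase, by 0.35 and Spred1 by 0.32. Itch, a ligase for JUN proteins, fell by 0.30 and Cop1, another, rose by 0.15.

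The effects of the inhibitor and of the guide were set against each other in 1 model over both culture experiments. All 10 members differed, where 55.3% of all genes did: 9 were higher with TAK-243 than the sgUba1 effect would place them, and Jund was lower. Egr1 had the largest difference, 8.84 on the log2 scale (SE 0.287, adjusted p = 7.46e-15, edgeR). Differences of the other FOS and EGR genes were 4.25 for Fosb, 3.59 for Egr2, 3.45 for Fos, 2.42 for Egr3, 2.12 for Fosl1 and 1.18 for Fosl2. In the JUN family they were 2.40 for Junb, 1.17 for Jun and -0.36 for Jund (adjusted p = 8.15e-04). An 18 h treatment and a stable subline differ in time and dose of the loss, and the experiments also differ in their control cells: Fosl1, for example, was at 72.3 and 73.8 TPM in untreated cells and at 150 and 202 TPM in sgNC cells. Of the 28 other immediate early genes 24 had a positive and 2 a negative difference.

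In the tumors few members passed the test. Here a lower level can mean fewer cells of a type or less RNA per cell, and bulk RNA cannot tell these apart. The comparison with the most movement was that of Myc-CaP sgUba1 with sgNC tumors, in which Fosl1 was lower and was the only one of the 10 members called by edgeR, where 3.04% of all 16202 genes were called. Its sgNC tumors stood at 20.4, 34.2 and 38.3 TPM and its sgUba1 tumors at 3.16, 3.55, 15.4, 2.24, 2.63, 5.28 and 1.22 TPM. All 7 tumors labelled sgUba1 were below all 3 controls, with tumor 3 the closest to them. The log2 fold change was -2.71 (SE 0.573, adjusted p = 0.0380), a 6.52-fold decrease. The call was lost with the replicate block (adjusted p = 0.192) and in 7 of the 10 fits that left out 1 tumor, those without sgNC tumor 2 or 3 or sgUba1 tumor 1, 4, 5, 6 or 7 (adjusted p = 0.0585 to 0.137). Summed markers of keratinocytes, of which Krt15 made up most, moved with it, at 185 to 1358 TPM in sgNC and 1.85 to 85.1 TPM in sgUba1 tumors; untreated cultured Myc-CaP cells had 929 to 934 TPM of the same genes. Ccdc85b, which overlaps Fosl1, was lower too (log2 fold change -0.80, adjusted p = 0.0329). The part of either in the result was not tested.

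**Figure D3:**
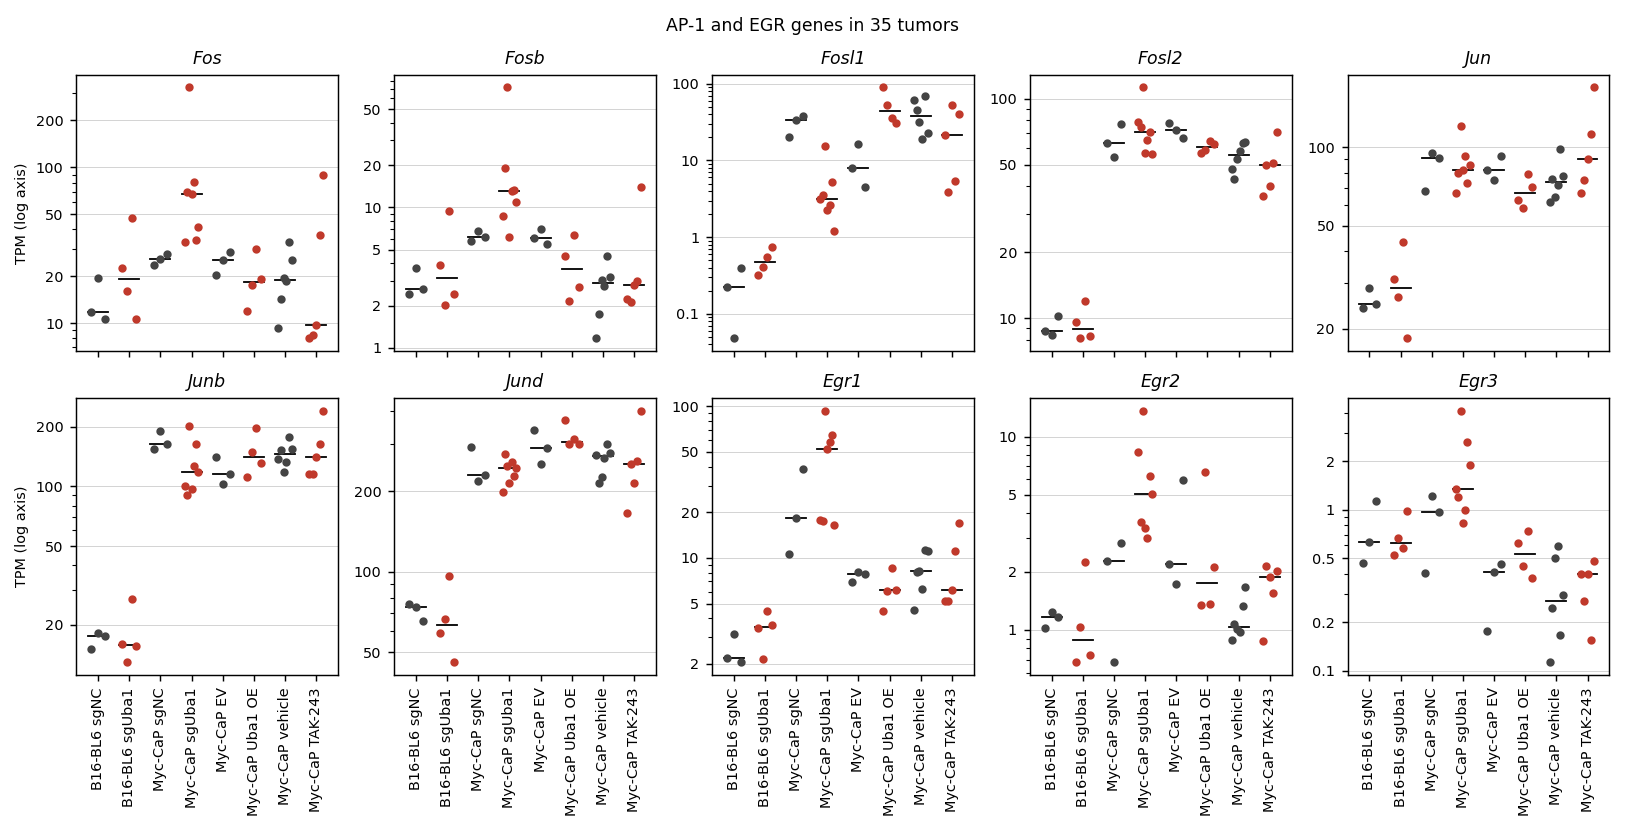
Level of each member in TPM (log axis) in the 35 tumors, by experiment; each point is 1 tumor, gray for sgNC, EV or vehicle and red for sgUba1, OE or TAK-243, and the bar is the group median. Fosl1 is lower in sgUba1 than in sgNC Myc-CaP tumors and higher in OE than in EV tumors, while the EV controls lie below the sgNC controls. Fos in Myc-CaP tumors labelled sgUba1 runs from 33.3 to 327 TPM above sgNC tumors at 23.7 to 27.8 TPM.

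Fos was higher in value in the tumors labelled sgUba1 without passing the test. It was at 23.7, 25.7 and 27.8 TPM in the sgNC tumors and at 33.3, 69.7, 327, 67.4, 80.6, 34.4 and 41.6 TPM in the sgUba1 tumors, without overlap. Tumor 3 was far above the others of its group. The log2 fold change was 1.83 (SE 0.708, adjusted p = 0.156), and without tumor 3 it was 1.13 (adjusted p = 0.0806). Egr2 also did not overlap, at 2.26, 0.681 and 2.81 TPM in sgNC and 8.29, 3.63, 13.6, 3.38, 2.98, 6.24 and 5.02 TPM in sgUba1 tumors, with a log2 fold change of 1.55 (adjusted p = 0.124). DESeq2 called Fos, Fosl1 and Egr2. Fosb had sgNC tumors at 5.74, 6.75 and 6.14 TPM and sgUba1 tumors at 8.63, 19.0, 71.8, 6.1, 13.1, 13.3 and 10.99 TPM. Tumor 4 lay within the controls for Fosb in TPM, while on the CPM scale of the test the groups did not overlap (10.9 to 12.46 against 13.3 to 128 CPM), and the log2 fold change was 1.66 (adjusted p = 0.183). Egr1 ran from 10.6 to 38.6 TPM in sgNC and from 16.4 to 93.6 TPM in sgUba1 tumors, with overlap. Junb was at 154, 190 and 164 TPM in sgNC and at 101, 90.6, 203, 97, 127, 164 and 118 TPM in sgUba1 tumors, where 5 of the 7 were below the controls; its log2 fold change was -0.38 (adjusted p = 0.362). Myeloid marker genes moved alongside, 4 of 12 being called higher (Adgre1 by 1.15, Ptprc by 1.06, Cd68 by 0.83 and C1qa by 0.82). Of all 16202 genes tested, 186 were called higher and 306 lower. The sums of the myeloid list were 381 to 662 TPM in sgNC and 648 to 1136 TPM in sgUba1 tumors. T and NK cell markers, none of 6 tested being called, summed to 9.99 to 12.8 TPM in sgNC and 13.1 to 28.3 TPM in sgUba1 tumors, without overlap. The part of either in these values was not tested. Of the pathway genes, Dusp6 fell by 1.74, Spred1 by 0.65, Arc by 2.12, Rps6ka4 by 1.47, Rps6ka3 by 0.61 and the AP-1 target Spp1, which encodes osteopontin, by 0.90. None was called higher among the 29 immediate early, 21 kinase, 9 feedback and 16 target genes tested. With only 186 of all 16202 genes called higher, the lack of rises is not a result about these lists.

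Fosl1 was higher in value in the OE than in the EV tumors, though no member was called. The EV tumors were at 8.01, 16.6 and 4.51 TPM and the OE tumors at 90.8, 52.3, 35.4 and 30.9 TPM. All 4 OE tumors exceeded all 3 EV tumors. The log2 fold change was 2.96 (SE 0.536), a 7.78-fold difference, with an adjusted p of 0.122 by edgeR in a comparison that called 0.0269% of the 14853 genes tested. Of the 9 members tested (Egr3 did not pass the filter on low counts) this was the one with an unadjusted p under 0.05, and DESeq2 called it alone. The controls of the Myc-CaP experiments differed too, since every EV tumor was below every sgNC tumor (20.4 to 38.3 TPM). EV values overlapped those of sgUba1 tumors (1.22 to 15.4 TPM), and OE values overlapped those of sgNC tumors. Uba1 itself was not called between sgUba1 and sgNC tumors, and a relation of Fosl1 to the level of Uba1 was not tested. The sum of the keratinocyte list moved with Fosl1 again, at 41.6 to 151 TPM in EV and 238 to 1073 TPM in OE tumors. In both groups 5 of the 7 genes of this list, all but Krt14 and Krt15, were at 0 in every library. Untreated cultured Myc-CaP cells had 929 to 934 TPM of the same sum. Other marker sums also did not overlap. Those of T and NK cells were at 16.8 to 20.3 TPM in EV and 5.59 to 9.36 TPM in OE tumors. Those of neutrophils were at 4.44 to 7.13 TPM in EV and 8.10 to 11.7 TPM in OE tumors. Only 2 of 12 T and NK cell genes were tested, with a median log2 fold change of -0.88. Of the 6 neutrophil genes only 2 were tested, with a median of -0.23, opposite to their sum. No gene of either list was called. Skeletal muscle markers reached 515 and 177 TPM in OE tumors 1 and 2 against 12.7 to 20.1 TPM in EV tumors. The part of these markers, or of the cells they stand for, in the result was not tested. The other 8 members had log2 fold changes of -0.30 to 0.35. Fos, for one, was at 20.3, 25.6 and 28.8 TPM in EV and 11.9, 17.7, 29.9 and 19.2 TPM in OE tumors, with overlap.

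In B16-BL6 tumors no member was called by edgeR or DESeq2 and none had an unadjusted p under 0.05, where 0.724% of 17539 genes were called. Log2 fold changes ran from -0.22 to 0.95 with adjusted p of at least 0.388. Fos was at 11.8, 19.5 and 10.7 TPM in sgNC and 22.5, 16.04, 47.0 and 10.6 TPM in sgUba1 tumors. These values overlapped, tumor 3 being the highest, and the log2 fold change was 0.73 (SE 0.451, adjusted p = 0.449). Fosl1 was almost absent from the melanoma, at 0.0475 to 0.747 TPM from 2 to 17 counts. Junb, at 13.01 to 27.2 TPM, and Jund, at 45.9 to 96.1 TPM, were also lower in TPM than in any Myc-CaP tumor. The test of whether the sgUba1 effect differed between B16-BL6 and Myc-CaP tumors called none of the 10 members by edgeR, 2 at an unadjusted p under 0.05 and 1, Fosl1, by DESeq2, against 1.52% of all genes. For Fosl1 the difference was 3.64 (SE 1.0, adjusted p = 0.0749).

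TAK-243 given to mice left no call among the members, by edgeR, by DESeq2 or at an unadjusted p under 0.05, where 0.145% of the 17299 genes tested were called. Fos stood at 9.34, 14.2, 19.5, 18.7, 33.3 and 25.5 TPM in the vehicle tumors and at 8.0, 8.45, 9.82, 36.7 and 89.9 TPM in the TAK-243 tumors. The treated tumors thus lay on both sides of the controls, 2 below all of them, 2 above all of them and 1 among the lowest, and the log2 fold change of 0.60 (adjusted p = 0.679) became -0.50 without TAK-243 tumor 5. Fosb was at 1.17 to 4.5 TPM in vehicle and at 2.22, 2.11, 2.8, 3.01 and 14.0 TPM in TAK-243 tumors, with a log2 fold change of 0.75 (adjusted p = 0.512) that became -0.21 without tumor 5. Jun was at 61.6 to 99.0 TPM in vehicle and 66.8, 75.0, 89.96, 113 and 171 TPM in TAK-243 tumors (log2 fold change 0.41, adjusted p = 0.455). Fosl1 was at 62.4, 45.7, 31.5, 19.3, 68.5 and 22.7 TPM in vehicle and 21.3, 3.86, 53.2, 5.46 and 40.0 TPM in TAK-243 tumors. Here 2 treated tumors were below every control, and the log2 fold change was -0.85 (adjusted p = 0.546). Egr1, which rose most in treated cells, was at 4.53 to 11.2 TPM in vehicle and 5.23, 5.19, 6.14, 11.1 and 17.1 TPM in TAK-243 tumors. No gene of the pathway lists was called. Neutrophil markers were, with S100a9 higher by 4.03 and S100a8 by 3.63, and their summed level was 6.13 to 18.4 TPM in vehicle and 46.1 to 122 TPM in TAK-243 tumors.

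The spread between tumors of 1 group was wide for these genes. For Fosl1 the SD within groups over the 35 tumors was 1.03 on the log2 CPM scale, for Fos 0.94, for Fosb 0.82, for Egr1 0.73, for Egr3 0.62 and for Egr2 0.58. The median gene had 0.230. Among the 13352 genes with a mean log2 CPM of at least 1, 99.1% had a smaller SD than Fosl1, 98.7% than Fos, 97.9% than Fosb, 97.0% than Egr1 and 93.9% than Egr2. The steadier members were Junb with an SD of 0.37 (79.2% of genes smaller), Jun with 0.36 (78.4%), Jund with 0.32 (71.1%) and Fosl2 with 0.27 (61.4%). In cultured cells the SD within groups was 0.28 for Fos, 0.31 for Fosb, 0.11 for Fosl1 and 0.24 for Egr1, and 0.047 for Fosl2.

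**Figure D4:**
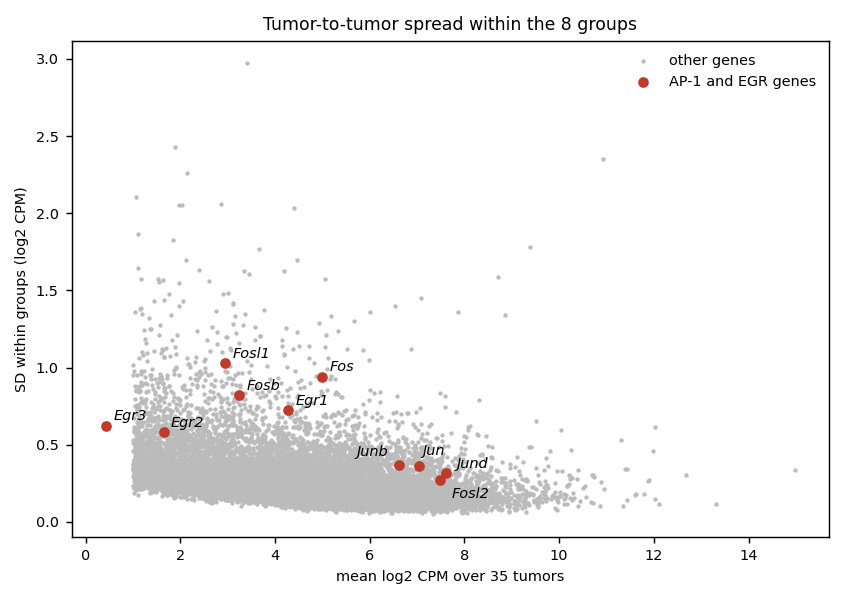
SD within groups of log2 CPM (vertical axis) against mean log2 CPM over the 35 tumors (horizontal axis); gray points are all genes compared and labelled points are the members. Fosl1, Fos, Fosb and Egr1 lie near the upper edge of the cloud, while Fosl2 at 0.27 lies close to the median gene at 0.230.

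In single tumors several members were high together. Myc-CaP sgUba1 tumor 3 was the highest of its group for 9 of the 10 members, all but Jund. Relative to its group mean it stood at 2.17 for Fos, 2.18 for Fosb, 2.01 for Fosl1, 1.32 for Egr2, 1.31 for Egr3 and 1.22 for Egr1 on the log2 scale, but at 0.54 for Fosl2 and -0.05 for Jund. TAK-243 tumor 5 was the highest of its group for 8 members, with 2.44 for Fos, 2.01 for Fosb, 1.37 for Fosl1 and 1.27 for Egr1. B16-BL6 sgUba1 tumor 3 was the highest of its group for 8 members, with 1.24 for Fos and 1.21 for Fosb. Vehicle tumor 5 and OE tumor 3 were the highest for 7 each. In marker levels these tumors were not alike. Myc-CaP sgUba1 tumor 3 had the highest myeloid (1136 TPM), fibroblast (1067 TPM) and T and NK cell (28.3 TPM) sums of its group, whereas TAK-243 tumor 5 had the lowest myeloid (276 TPM) and T and NK cell (7.85 TPM) sums and the highest neutrophil sum (122 TPM) of its group. The part of these cells in the levels was not tested.

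**Figure D5:**
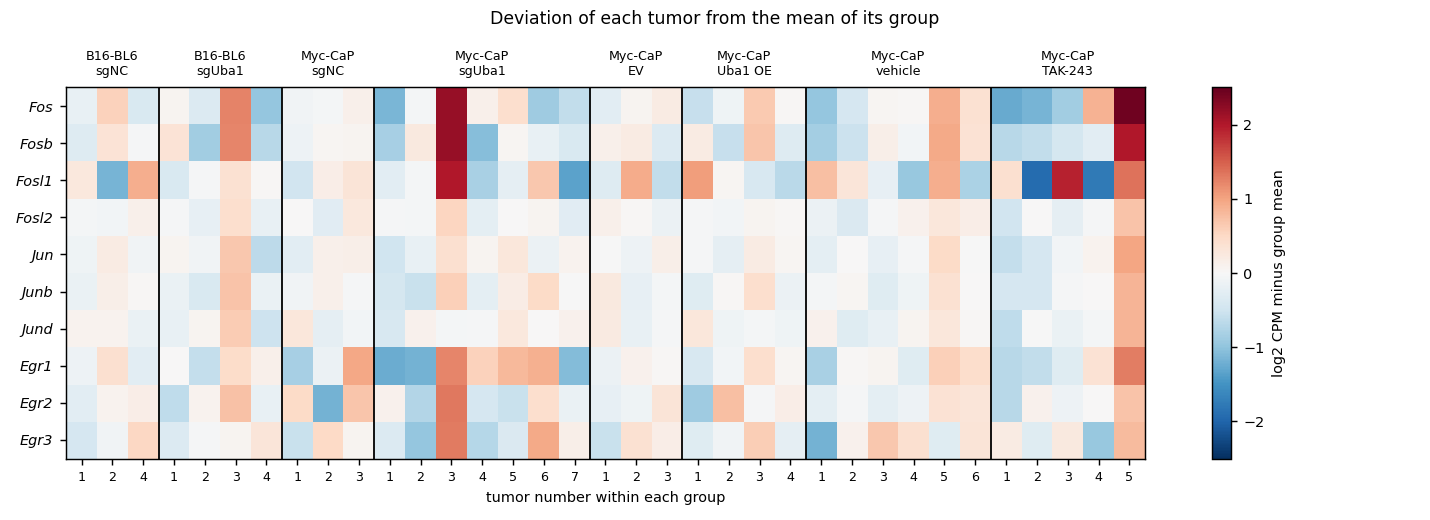
Deviation of each member (rows) from the mean of its group in log2 CPM, for the 35 tumors (columns, by group); red is above and blue below the mean. Myc-CaP sgUba1 tumor 3 and TAK-243 tumor 5 are red in most rows, with Fos at 2.17 and 2.44.

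Over the deviations of the 35 tumors from their group means, Fos and Jun had a Pearson r of 0.862 (Spearman's rho 0.813), and 0.822 without the 2 tumors farthest from the median of Fos. Within experiments that r was 0.974 in B16-BL6, 0.761 in the Myc-CaP sgUba1, 0.573 in the OE and 0.922 in the TAK-243 tumors. Fos and Fosb had an r of 0.849, which was 0.293 within the OE tumors and between 0.840 and 0.917 within the other experiments. Fosb and Fosl2 had 0.825, Jun and Junb 0.780, Fos and Fosl2 0.749, Fos and Egr1 0.702 and Fos and Junb 0.699. Fosl1 had lower values over all tumors, with an r of 0.184 with Fos (-0.199 without the 2 farthest tumors), 0.406 with Fosb and 0.305 with Fosl2. Within the Myc-CaP sgUba1 experiment these were 0.643 with Fos, 0.827 with Fosb and 0.826 with Fosl2. Those values include sgUba1 tumor 3, which stood above its group mean by 2.17 for Fos, 2.18 for Fosb and 2.01 for Fosl1. They were not computed without that tumor, so a link in the other tumors is not shown. Within the OE tumors the r of Fosl1 with Fos was -0.526. Fosl1 also went with the sum of the keratinocyte list (r = 0.671), which cultured Myc-CaP cells carried too, and against the luminal epithelial sum (r = -0.546). Fos had an r of -0.004 with the myeloid and -0.008 with the T and NK cell sum. Over all marker lists Fos ran from -0.243 (skeletal muscle) to 0.394 (fibroblast). Egr1 ran from -0.141 (skeletal muscle) to 0.523 (neutrophil) and Jun from -0.415 (skeletal muscle) to 0.422 (neutrophil). The values share libraries and scaling, and these correlations are descriptions of them.

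Members were left out of the ranking of genes most like Fos over these deviations, which drew on 13352 genes. The first were Adm (r = 0.854), which encodes the vasodilator peptide adrenomedullin, Dusp1 (0.853), Zfp36 (0.846), which encodes an mRNA-destabilizing protein, Ier3 (0.840) and Nfkbiz (0.799), an atypical IκB protein. Over the 16 cell libraries, with the deviation taken from the control cells of the same experiment, the genes most like Jun among 11269 were Fyn (0.994), a Src family kinase, Unc13d (0.993), Tnip1 (0.991), an inhibitor of NF-κB signaling, Elf3 (0.991), an epithelial ETS factor, and Capzb (0.989), an actin capping protein. In all 4 libraries with TAK-243 Jun was above its level in the other 12, so these values are not those of 16 evenly spread points.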

How the data were processed

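Bulk RNA-seq libraries of 35 tumors and 16 cultures of Myc-CaP cells were used. Per the labels, poly-A RNA was quantified with kallisto against mm10; the annotation release is not given in the sources used here, and the methods text of the study names a ribosomal RNA depletion kit in place of poly-A selection, so which was used is unclear. The deposited expected counts per gene, estimated by the authors and not normalized, were rounded to whole numbers for testing. The authors' deposited TPM values, scaled for transcript length and library, were used for levels.

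Groups followed the sample labels. Each tumor experiment and each culture experiment was fitted on its own with edgeR 4.0.16 (R 4.3.3): filterByExpr, TMM scaling, glmQLFit and glmQLFTest, with Benjamini-Hochberg adjustment over all genes tested and a threshold of 0.05. The difference of the sgUba1 effect between tumor models and that between TAK-243 and sgUba1 in cells were fitted on the joined libraries. Log2 CPM used a prior count of 2. DESeq2 1.42.0, RLE scaling, no filter, a replicate block, fits on 4 libraries and leaving out each library were the alternatives. The fits were tested on simulated data. Members and lists were chosen with earlier results of these data known. Named were all members, Uba1, up to 4 called genes per list and comparison by size of the log2 fold change, and the 5 genes likest to Fos in tumors and to Jun in cells by Pearson r.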

Additional observations from a re-analysis of the deposited data

Results flagged for a closer look

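Dixon's test at the 95% level was run on the highest and lowest TPM of each member in each group of 4 to 10 tumors, 50 member and group pairs in all, of which it marks about 1 in 20 by chance; 7 were marked. In Myc-CaP sgUba1 tumor 3 these were Fos at 327 TPM, where the next tumor of the group had 80.6, Fosb at 71.8 TPM against 19.0, Fosl1 at 15.4 TPM against 5.28 and Fosl2 at 113 TPM against 78.3. Since these 4 values come from 1 library they are not separate events. TAK-243 tumor 5 stood apart for Fosb, at 14.0 TPM with the next tumor at 3.01. In the OE group, tumor 1 stood apart for Jund at 371 TPM, where the next had 313, and tumor 2 for Egr2 at 6.52 TPM, where the next had 2.12.

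The effect of TAK-243 on Jund in cultured cells differed with and without IFN-γ by the interaction test, at -0.37 on the log2 scale (adjusted p = 8.34e-05, edgeR). Jund was lower in both libraries with TAK-243 in either condition. The size belongs to the CPM scale of the test, and an interaction in TPM was not computed.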

How the results depend on the processing

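Counts of members called were within 1.5 times of the main count under every alternative run, except in these comparisons. Among Myc-CaP tumors labelled sgUba1, 1 member (Fosl1) was called, 0 with the replicate block and 3 by DESeq2 (Fosl1, Fos with adjusted p = 0.0302 and Egr2 with adjusted p = 0.0260), and 0 to 1 with 1 tumor left out: Fosl1 had an adjusted p of 0.0585 to 0.137 without sgNC tumor 2 or 3 or sgUba1 tumor 1, 4, 5, 6 or 7. In OE tumors 0 were called, 1 (Fosl1) with no filter (adjusted p = 0.0496) or by DESeq2, and 0 to 1 with a tumor left out, OE tumor 1 (0.0184) or 4 (0.0439). For IFN-γ in sgNC cells 0 were called and 0 to 4 with a library left out (4 without sgNC 1, 2 without sgNC 2; Fosl1 and Junb were called in both fits, lower in the first and higher in the second), and for the sgUba1 by IFN-γ interaction 0 and 0 to 4 (1 without sgNC 1, 4 without sgNC 2). For the difference between B16-BL6 and Myc-CaP, 0 were called, 1 (Fosl1) by DESeq2, and 0 to 1 with a tumor left out (Fosl1, adjusted p = 0.00806 without Myc-CaP sgUba1 tumor 3). Changes of sign among named values were Fos to -0.50 and Fosb to -0.21 in TAK-243 tumors without tumor 5 (with 1 tumor left out, -0.50 to 0.85 and -0.21 to 0.99), and Fos in sgUba1 cells with IFN-γ to -0.14 without sgNC library 2 with IFN-γ (range -0.14 to 0.18). Egr3 (TAK-243 with IFN-γ) was called with RLE scaling (0.0469) and on the 4 libraries compared (0.0428). Jun (sgUba1 with IFN-γ) was called with RLE (0.0381), no filter, the block, DESeq2 and on the 4 libraries compared (0.00197). Uba1 in OE tumors was not called with the block (0.103). The causes were not tested. Of 1605 alternative values of the members 1504 kept direction and call, 10 lost and 27 gained the call and 64 changed sign, 2 of these past the threshold (Fosl1 without sgNC 1 and Junb without sgNC 2, both for IFN-γ in sgNC cells). With a cell library left out, its group has 1 library, which is assumed to vary like the other groups. Calls over all genes moved more: 127 became 534 by DESeq2 and 204 with no filter in B16-BL6; 492 became 1862 by DESeq2 and 2 with the block in Myc-CaP sgUba1; 4 became 707 by DESeq2, 33 with no filter and 0 with the block in OE; 25 became 544, 45 and 8 in TAK-243 tumors; 266 became 1179, 115 and 11 for the difference of models. In cells, DESeq2 gave 2617 for 4216 (IFN-γ), 230 for 347 (TAK-243 by IFN-γ) and 395 for 603 (IFN-γ in sgNC cells, 292 with RLE, 1460 with no filter, 30 on 4 libraries); 720 became 414 with RLE and 1487 with no filter (sgUba1 by IFN-γ). With 1 library left out the totals ran from 43 to 320 in B16-BL6, 10 to 692 in Myc-CaP sgUba1, 0 to 386 in OE and 1 to 299 in TAK-243 tumors, 29 to 661 for the difference of models, 35 to 2721 for IFN-γ in sgNC cells, 14 to 2622 for sgUba1 by IFN-γ, 85 to 329 for TAK-243 by IFN-γ and 2932 to 5641 for sgUba1 in cells. Same-numbered samples deviated together in few pairs (r from -0.265 to 0.433), so the numbers were not taken to pair samples. The highest r was that of vehicle tumor 5 with TAK-243 tumor 5. For sgNC cells with the other groups of their experiment r was 0.129 to 0.248. In groups of 2 libraries both numbers give the same r by construction. Egr1, Egr2, Egr3, Fos and Fosb in untreated and sgNC cells rest on few counts, which limits their fold changes.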
